A study of Mus musculus with 6 samples.

Results

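Lipolysis in newborn brown fat was followed through 8 genes: Pnpla2, Lipe, Mgll, Abhd6 and Pnpla3, which encode lipases, Abhd5, which encodes a lipase activator, and G0s2 and Hilpda, which encode lipase inhibitors. They were chosen by symbol for their roles, with earlier results of these data known. They are 8 of the 19241 genes in the table of total interscapular brown adipose tissue (iBAT), and all 8 were found. RNA from the whole depot was sequenced in 6 libraries, all from mice at the newborn stage. The 3 libraries called WT are labelled with the genotype Fstl1-floxed, and the 3 called KO with the genotype Myf5-Fstl1 KO, a loss of Fstl1 in cells of the Myf5 lineage. Fstl1 encodes a secreted glycoprotein, and the Myf5 lineage gives rise to skeletal muscle as well as to brown adipocytes, so the deletion is not limited to fat. The labels name no strain, litter or sex, do not say whether a library came from a single animal, and name no Cre allele in the WT mice. The p-values therefore measure the spread between these libraries, which may in part be technical.

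Lipolysis is the stepwise removal of fatty acids from the triglyceride of the lipid droplet. ATGL, the product of Pnpla2, takes off the first fatty acid, hormone-sensitive lipase (Lipe) acts mainly on the diglyceride that is left, and monoglyceride lipase (Mgll) or ABHD6 releases the last one and glycerol. ABHD5, also called CGI-58, binds ATGL and activates it, while G0S2 and HILPDA bind ATGL and inhibit it. In brown fat, noradrenaline acts through beta-adrenergic receptors, cAMP and protein kinase A to drive this cascade, and the fatty acids feed heat production in mitochondria.

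Fstl1 measured 55.5, 130 and 54.4 FPKM across WT replicates 1 to 3, and 7.93, 13.1 and 8.77 across KO replicates 1 to 3, or 12.4% of the WT mean in KO (log2 fold change -2.79, SE 0.33, adjusted p = 0.00979 in limma). FPKM counts sequenced fragments, scaled for transcript length and library size. Steps between low values gave an estimated 13700000 to 14850000 reads per library. Xist lay between 44.8 and 85.5 FPKM in WT and between 0.05 and 0.92 in KO, and the Y-linked Ddx3y between 0 and 0.23 in WT and between 59.5 and 60.8 in KO, so genotype and sex cannot be told apart in any difference given here. KO replicate 1 had a summed level of 326 FPKM for 12 skeletal muscle markers against 1304 to 1901 in WT and up to 1726 in KO. The summed level of 9 erythroid markers ran from 3385 to 14404 FPKM in WT, highest in WT replicate 3, and from 3076 to 3969 in KO. Ucp1, the uncoupling protein of brown fat, averaged 5582 ± 1055 FPKM in WT and 2729 ± 960 in KO (SD, n = 3 each; adjusted p = 0.0804 in limma).

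No lipolysis gene passed the test, and 6 of the 8 had a lower mean in KO than in WT. In the limma fit across all 13331 genes tested, 0 of 8 had an adjusted p under 0.05, where 2.21% of all genes tested did (1.01% lower and 1.21% higher in KO). At an unadjusted p under 0.05 there were 3 (Mgll, Abhd5 and Hilpda), where 19.2% of all genes tested lay. The WT and KO values did not overlap for 4 genes: Mgll, Abhd5 and G0s2 were lower in all KO libraries (11.4% of all genes tested were), and Hilpda was higher in all of them (13.6% of all genes tested were). In either direction 24.9% of genes tested did not overlap. The median log2 fold change of the 8 genes was -0.53, beside 0.01 over all genes tested. On simulated data with 200 of 13331 genes changed, the fit called 0 of the 200 given a log2 change of 0.5. An adjusted p under 0.05 is harder to reach when few genes are changed, and 295 genes passed in these data. The simulation thus does not give the power for these 8 genes, though changes of this size can go uncalled. In whole tissue, fewer cells of a type and less RNA per cell cannot be told apart.

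**Figure D1:**
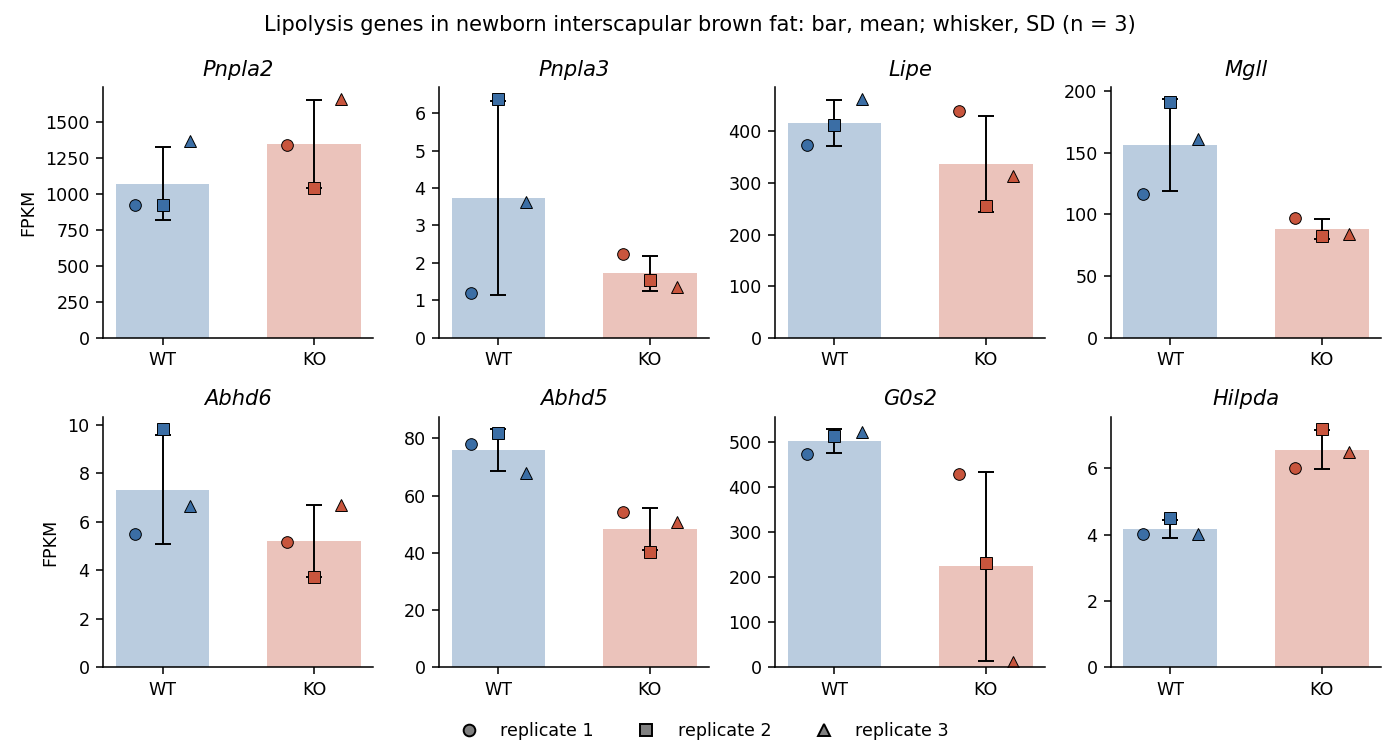
FPKM of the 8 lipolysis genes in the 3 WT and 3 KO libraries, with 1 panel and 1 linear axis from 0 per gene (points: libraries by replicate number; bars: group means; whiskers: SD, n = 3). Mgll, Abhd5 and G0s2 lie lower and Hilpda higher in every KO library, and G0s2 runs from 11.6 to 429 FPKM within KO.

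Per transcript length, these genes fell in WT into an abundant and a scarce set. Pnpla2 averaged 1072 FPKM in WT and stood above 99.7% of all genes of the table, G0s2 averaged 502, Lipe 416, Mgll 156 and Abhd5 75.9. Abhd6, Hilpda and Pnpla3 averaged 7.33, 4.18 and 3.73 FPKM. In that order each pair of neighbours was separated in all WT libraries except Hilpda and Pnpla3, whose values overlapped. In KO the order of the means was Pnpla2, Lipe, G0s2, Mgll, Abhd5, Hilpda, Abhd6 and Pnpla3. Neighbours overlapped there for Lipe and G0s2, for G0s2 and Mgll, and for Hilpda and Abhd6.

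Pnpla2 (Entrez 66853, chr7:141455188-141460743, GRCm38.p6), the gene of ATGL, measured 922, 926 and 1367 FPKM across WT replicates 1 to 3, and 1341, 1042 and 1660 across KO replicates 1 to 3. The groups overlapped, with WT replicate 3 above KO replicates 1 and 2. Averages of 1072 ± 256 in WT and 1348 ± 309 FPKM in KO (SD, n = 3 each) gave a log2 fold change of 0.33 (SE 0.22, 95% interval -0.17 to 0.83, adjusted p = 0.450 in limma). With single libraries left out it lay between 0.17 (without KO replicate 3) and 0.52 (without WT replicate 3). Pnpla3 (Entrez 116939, chr15:84167776-84189521), which encodes adiponutrin, a lipid droplet protein related to ATGL, was at 1.20, 6.37 and 3.63 FPKM in the WT libraries and 2.24, 1.55 and 1.36 in KO. Its WT libraries spread over a 5.31-fold range that took in all 3 KO values. The log2 fold change was -0.65 (SE 0.38, adjusted p = 0.388 in limma). It rests on an estimated 22 to 120 reads per library, and moved to -0.25 without WT replicate 2 and to -1.12 without WT replicate 1, past the threshold in neither.

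Lipe (Entrez 16890, chr7:25379527-25398486), the gene of hormone-sensitive lipase, was at 373, 412 and 462 FPKM in the WT libraries and 439, 256 and 314 in KO. KO replicate 1 lay inside the WT range, and the other 2 KO libraries lay below it. Averages were 416 ± 44.8 in WT and 337 ± 93.6 FPKM in KO (SD, n = 3 each), with a log2 fold change of -0.33 (SE 0.20, 95% interval -0.79 to 0.13, adjusted p = 0.409 in limma). This became -0.16 without KO replicate 2 and -0.54 without KO replicate 1. The long noncoding gene 4732471J01Rik overlaps Lipe in the annotation and was at 9.76 to 17.1 FPKM. Strand handling is not given in the sources used here, so its reads may be shared with Lipe.

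Mgll (Entrez 23945, chr6:88724412-88828360), which encodes monoglyceride lipase, was at 117, 191 and 161 FPKM in the WT libraries and 97.4, 82.5 and 84.4 in KO. All KO libraries lay below all WT libraries, and the KO values were the closer together. The KO mean was 56.5% of the WT mean (88.1 ± 8.08 against 156 ± 37.2 FPKM, SD, n = 3 each), with a log2 fold change of -0.79 (SE 0.19, 95% interval -1.22 to -0.36, unadjusted p = 0.00247, adjusted p = 0.0674 in limma). Without WT replicate 1, the lowest WT library, the value was -0.99 and the adjusted p 0.0325, and over all 16 settings the adjusted p ran from 0.0325 to 0.258. Abhd6 (Entrez 66082, chr14:8002888-8056773), a second monoglyceride hydrolase, was at 5.51, 9.83 and 6.65 FPKM in the WT libraries and 5.19, 3.72 and 6.68 in KO. KO replicate 3 lay just above WT replicate 3, and the other 2 KO libraries lay below every WT library. Its log2 fold change was -0.42 (SE 0.24, adjusted p = 0.374 in limma), and nearer to 0 without WT replicate 2 (-0.22) or KO replicate 2 (-0.24). It rests on an estimated 120 to 319 reads per library.

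Abhd5 (Entrez 67469, chr9:122351616-122381524), the activator of ATGL, was at 78.1, 82.0 and 67.7 FPKM in the WT libraries and 54.3, 40.3 and 50.7 in KO. The groups were separate, with the highest KO library below the lowest WT library. The KO mean was 63.8% of the WT mean (48.4 ± 7.27 against 75.9 ± 7.37 FPKM, SD, n = 3 each), with a log2 fold change of -0.65 (SE 0.16, 95% interval -1.0 to -0.29, unadjusted p = 0.00283, adjusted p = 0.0717 in limma). Over 16 other settings the adjusted p ran from 0.0579 to 0.274, and the log2 fold change from -0.73 to -0.52.

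G0s2 and Hilpda, both inhibitors of ATGL, had KO means on opposite sides of WT, so their promoters are shown side by side, as the 250 bases before the annotated start of G0s2 (chr1:193273189-193273438, minus strand) and before the first annotated start of Hilpda (chr6:29272238-29272487, plus strand), from RefSeq on GRCm38.p6, read 5′ to 3′ along each gene. Capitals mark the matches to 7 motifs searched on both strands.
G0s2: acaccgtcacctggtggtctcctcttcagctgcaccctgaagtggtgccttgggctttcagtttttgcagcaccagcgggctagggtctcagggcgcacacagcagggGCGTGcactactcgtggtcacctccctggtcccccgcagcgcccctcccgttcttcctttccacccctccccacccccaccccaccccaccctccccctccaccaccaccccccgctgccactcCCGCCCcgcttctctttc
Hilpda: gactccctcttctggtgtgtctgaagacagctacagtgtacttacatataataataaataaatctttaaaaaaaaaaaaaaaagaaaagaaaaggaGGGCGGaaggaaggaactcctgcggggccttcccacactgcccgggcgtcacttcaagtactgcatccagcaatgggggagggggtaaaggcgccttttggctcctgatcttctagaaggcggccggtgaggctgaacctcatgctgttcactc
The G0s2 window holds GCGTG, a core of the hypoxia response element, 142 bases before the start, and GGGCGG, the GC box, on the opposite strand 18 bases before it. The Hilpda window holds a GC box 154 bases before the start. Among 32851 promoter windows of the same length in the table, 28.2% held GCGTG and 32.7% held GGGCGG, so neither match is rare. Neither of these windows held ACGTG, the other form of the hypoxia core (16.6% of windows), TGACGTCA, the cAMP response element (1.55%), GTAAACA, a forkhead site (3.17%), AGGTCA, a nuclear receptor site (14.0%), or CACGTG, an E-box that contains ACGTG (6.02%). The window before a second annotated start of Hilpda, not shown, held ACGTG 43 bases and GCGTG 111 and 8 bases before that start. All 8 genes had a promoter entry, with 12 windows between them. The cAMP response element was found in Pnpla3 alone, 46 bases before its start, and the forkhead site in a window each of Lipe and Mgll. These matches are letters in a window and say nothing of binding.

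G0s2 (Entrez 14373, chr1:193272160-193273188) measured 472, 512 and 521 FPKM across WT replicates 1 to 3, and 429, 232 and 11.6 across KO replicates 1 to 3. The WT libraries were nearly level, all KO libraries lay below them, and the KO libraries were far apart, with KO replicate 3 lowest. These values were 85.5%, 46.2% and 2.31% of the WT mean, and the coefficient of variation was 5.24% in WT and 93.2% in KO. KO replicate 3 was 28.5-fold below the mean of the other 2 KO libraries and 43.3-fold below the WT mean. Its value still corresponds to an estimated 143 reads, against 5606 to 6345 in WT, so the low level is not at the limit of detection. With this spread the log2 fold change of -2.22 had an SE of 1.06 and a 95% interval of -4.62 to 0.18 (adjusted p = 0.297 in limma). Without KO replicate 3 it was -0.67 (adjusted p = 0.275), and without KO replicate 1 it was -3.21 (adjusted p = 0.163).

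Hilpda (Entrez 69573, chr6:29272488-29275449), a hypoxia-inducible inhibitor, was at 4.03, 4.49 and 4.02 FPKM in the WT libraries and 6.02, 7.19 and 6.49 in KO. All KO libraries lay above all WT libraries, with little spread in either group. The KO mean was 157% of the WT mean (6.57 ± 0.589 against 4.18 ± 0.269 FPKM, SD, n = 3 each), with a log2 fold change of 0.55 (SE 0.14, 95% interval 0.23 to 0.86, unadjusted p = 0.00390, adjusted p = 0.0837 in limma). The values rest on an estimated 36 to 100 reads per library. Over 16 other settings the log2 fold change stayed between 0.49 and 0.65, and the adjusted p between 0.0734 and 0.223.

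**Figure D2:**
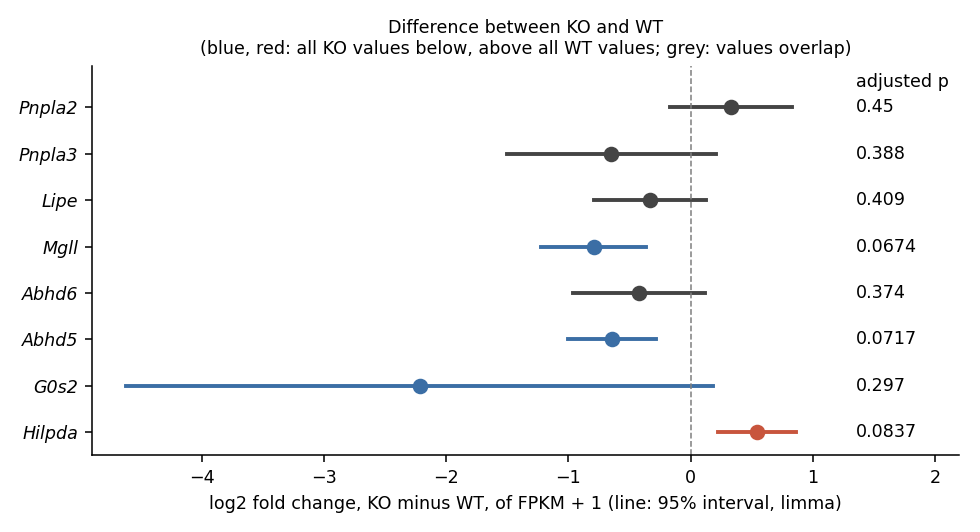
Log2 fold change, KO minus WT, of FPKM + 1 for each lipolysis gene (points: limma estimates; lines: 95% intervals; numbers at the right: adjusted p). The intervals of Mgll and Abhd5 lie below 0 and that of Hilpda above it, no adjusted p is under 0.05, and the interval of G0s2 spans -4.62 to 0.18.

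The level of G0s2 in KO replicate 3 was set beside all other genes, a comparison made after its value was seen. On the log2(FPKM + 1) scale it lay 4.21 below the lowest of the other 5 libraries, and no tested gene in any of the 6 libraries lay further below the other 5. The next gene below in KO replicate 3 was Tfrc, the transferrin receptor (1.81), and Klhdc7a lay at 1.57. Hcar1, a lactate receptor that restrains lipolysis, lay at 1.46, Dgat2, which makes triglyceride, at 1.36, and Ppara, a transcription factor of fatty acid oxidation, at 1.29. KO replicate 3 also stood apart upward, with 79 genes at least 1 log2 unit above the other 5 libraries, against 4 to 13 in each other library. Irf4 was at 199 FPKM there, against 10.04 and 17.95 in the other KO libraries and 0.69 to 1.08 in WT. Ehhadh, an enzyme of peroxisomal fatty acid oxidation, was at 501 FPKM there, against 62.0 to 95.3 in the other libraries. Pnpla2 was also highest in that library. The part of any shared factor in these values was not tested.

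**Figure D3:**
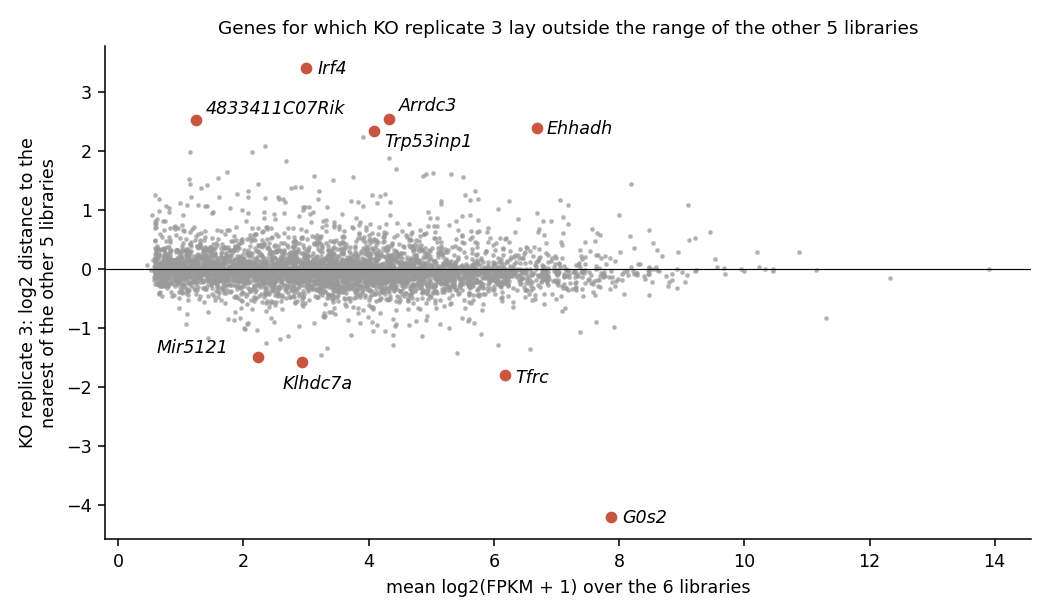
Distance in log2(FPKM + 1) from KO replicate 3 to the nearest of the other 5 libraries, for the genes for which it was the highest (above 0) or the lowest (below 0) library, against the mean over all 6 libraries (red: genes among the 5 furthest above and below). G0s2 lies at -4.21, and the next gene below is Tfrc at -1.81.

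Ratios between genes of the same library do not depend on how that library was scaled. Each FPKM of G0s2 stood against 1.95, 1.81 and 2.62 FPKM of Pnpla2 in WT replicates 1 to 3, and against 3.13, 4.50 and 143 in KO replicates 1 to 3. The RNA of G0s2 was therefore lower relative to that of Pnpla2 in every KO library. The mean difference was -2.59 log2 units, or -0.84 without KO replicate 3. These are ratios of RNA, and protein was not measured. For Abhd5, the gene of the activator, the ratio went the same way. Pnpla2 per Abhd5 was 11.8, 11.3 and 20.2 in WT and 24.7, 25.9 and 32.7 in KO, a difference of -0.99 in the log2 ratio of Abhd5 to Pnpla2. Pnpla2 per Lipe was 2.47, 2.25 and 2.96 in WT and 3.05, 4.07 and 5.29 in KO, a difference of -0.67 in the log2 ratio of Lipe to Pnpla2. Lipe was thus lower relative to Pnpla2 in every KO library, although the levels of both genes overlapped between the groups.

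These 3 ratios, of 7 compared, had no overlap between the groups, where 24.9% of single genes tested had none. The share without overlap was not computed for ratios of other gene pairs, and all 3 ratios are to Pnpla2. Each gave p = 0.1 in the exact two-sided permutation test, the smallest that 3 libraries against 3 allow (adjusted p = 0.233 over the 7). For the other 4 the groups overlapped. The log2 ratio differed by 0.32 for Hilpda to Pnpla2 (exact p = 0.5), -0.46 for Mgll to Lipe (exact p = 0.2), 0.31 for Abhd6 to Mgll (exact p = 0.4) and -1.18 for Pnpla3 to Pnpla2 (exact p = 0.3). Single libraries weighed on these: Hilpda to Pnpla2 differed by 0.08 without KO replicate 2, Abhd6 to Mgll by 0.08 without KO replicate 3, Mgll to Lipe by -0.30 without WT replicate 2, and Pnpla3 to Pnpla2 by -0.55 without WT replicate 2. All of these share Pnpla2, Lipe or Mgll with another ratio and so are not independent.

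**Figure D4:**
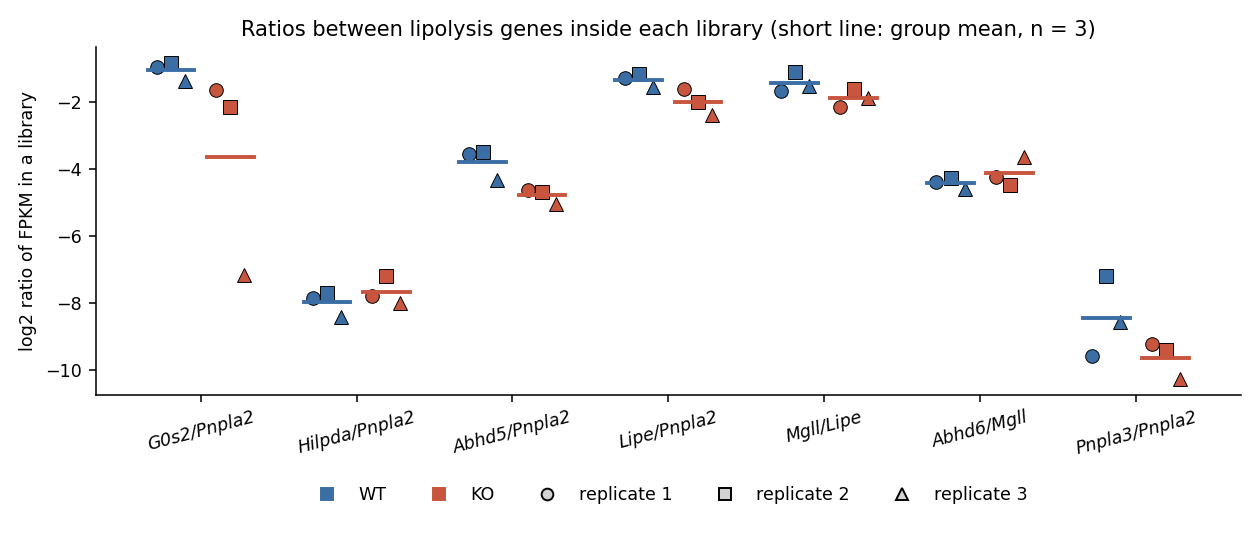
Log2 ratio of FPKM between lipolysis genes inside each library for the 7 ratios compared (points: libraries by replicate number; short lines: group means, n = 3). The KO points lie below all WT points for G0s2, Abhd5 and Lipe over Pnpla2, and the G0s2 ratio of KO replicate 3 lies far below the rest.

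Since these genes are expressed in adipocytes, each was also set against general adipocyte RNA, taken as the mean log2 FPKM of 9 markers (Adipoq, Fabp4, Cfd, Cidec, Plin1, Retn, Pparg, Cebpa and Lpl). Of the 10 adipocyte markers listed, none was at 0 in any library and 2 fell (Plin1 and Lep). In all, 5 had a negative and 5 a positive log2 fold change, and Plin1 (-1.36) is kept among the 9. The summed level of the 10 was 17672 to 21262 FPKM in WT and 17985 to 19851 in KO. Most of it was Fabp4, at 14059 to 17389 FPKM in WT and 14000 to 15846 in KO. Relative to the mean of the 9 markers, KO minus WT was -2.12 log2 units for G0s2 (-0.59 without KO replicate 3), -0.66 for Mgll and 0.79 for Hilpda. The groups did not overlap for these 3 of 8 genes, where 23.7% of all genes tested did not on this scale (6.48% lower and 17.3% higher in KO). Each had an exact two-sided permutation p of 0.1 (adjusted p = 0.267 over the 8). For G0s2 the groups were only just apart, with KO replicate 1 at -0.277 and WT replicate 3 at -0.256. Abhd5 differed by -0.51, with KO replicate 3 just inside the WT range (exact p = 0.2). Pnpla2 differed by 0.47 (exact p = 0.2; 0.25 without KO replicate 3), Pnpla3 by -0.71 (exact p = 0.4; -0.19 without WT replicate 2) and Abhd6 by -0.35 (exact p = 0.4; -0.098 without KO replicate 2). Lipe differed by -0.19 (exact p = 0.6), and without KO replicate 2 by 0.0178, the other direction.

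Markers of other cells were measured beside these values. The 10 brown adipocyte markers summed to 7725 to 12505 FPKM in WT and 6293 to 7919 in KO, and 2 of 10 fell (Elovl3 and Otop1). In all, 7 had a negative and 3 a positive log2 fold change, with a median of -0.36. The groups did not overlap for 4, all lower in KO. Of 12 macrophage markers 11 had a higher mean in KO and 0 passed the test in limma (4 at an unadjusted p under 0.05), with sums of 143 to 211 FPKM in WT and 198 to 275 in KO. All 11 skeletal muscle markers tested had a negative log2 fold change, with 0 past the test in limma and 1 at an unadjusted p under 0.05. The groups overlapped for each of the 11. By sum KO replicate 1 was lowest, at 326 FPKM against 1304 to 1901 in WT and up to 1726 in KO. Myh3 even had the higher mean in KO (16.3 against 13.7 FPKM), with KO replicate 1 at 3.24. Mb was low in the other KO libraries too, at 9.01 and 11.4 FPKM against 11.3 to 32.3 in WT. The shared sign thus does not show less muscle RNA in every KO library. The medians of endothelial, Schwann cell and fibroblast markers were 0.01, -0.07 and 0.24. Of the neutrophil markers 5 were tested, with a median of 0.14 and Ly6g at 0 in some library. Epidermal markers were near absent, with sums of 2.33 to 5.34 FPKM over all libraries and 5 of 8, among them Krt5 and Krt14, at 0 in some library. The part of other cells in the lipolysis values was not tested.

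For each gene the 2 genes with the most similar profile over the 6 libraries were found among 8373 others with a mean of at least 5 FPKM (8374 for Pnpla3), by the root mean square difference of centred log2(FPKM + 1) profiles. These are descriptions over 6 libraries that share the KO and WT split. Lipe lay nearest to Ldb2 (0.0487) and Tfpt (0.0625), Hilpda to Slc35b3 (0.0547) and Herpud2 (0.0556), and among the 2 nearest were Srxn1 (0.0704) for Abhd5 and Itga7 (0.0820) for Mgll. Abhd6 lay nearest to Gpam (0.0886), which encodes a glycerol-3-phosphate acyltransferase of triglyceride synthesis, and to Zfp532 (0.1003). Gpam was at 35.3, 59.4 and 37.8 FPKM in WT and 30.8, 21.1 and 37.4 in KO. Pnpla2 lay nearest to Psen2 (0.0943) and Hdac5 (0.111), and Pnpla3 to Ckb (0.191) and Slc7a10 (0.201). G0s2 had no close neighbour. The nearest, Klhdc7a, differed by 1.03, at 10.3, 12.4 and 10.6 FPKM in WT and 8.42, 5.07 and 1.04 in KO, and Phlda3 by 1.07.

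The genes around the cascade were described by 12 lists with 187 genes, of which 164 were tested. Of these 13 passed the test, 9 lower and 4 higher in KO, or 7.93% beside 2.21% of all genes tested. The lists were chosen with earlier results of these data known, so the 2 shares are not an independent comparison. The median log2 fold change of the 164 genes was -0.08. The call of many rests on single libraries. Leaving out WT replicate 3 left 0 of the 13 past the threshold (adjusted p from 0.0677 to 0.148), and KO replicate 2 left 1 (0.0459 to 0.117), WT replicate 2 left 2 (0.0229 to 0.184), KO replicate 3 left 5 (0.00202 to 0.144), WT replicate 1 left 8 (0.0172 to 0.0725) and KO replicate 1 left 9 (0.0238 to 0.130). All 13 kept their direction throughout.

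Among 12 tested genes of droplet access, 2 fell and 10 did not pass, with a median of -0.25. Plin1, the perilipin that holds ABHD5 away from ATGL in unstimulated fat cells, was at 174, 309 and 254 FPKM in the WT libraries and 106, 76.6 and 96.9 in KO. Every KO library lay below every WT library, with a log2 fold change of -1.36 (SE 0.22, adjusted p = 0.0267 in limma). Plin5, which binds ATGL and ABHD5 on droplets of oxidative tissues, fell from 92.0 ± 23.0 to 35.8 ± 13.7 FPKM (SD, n = 3 each; log2 fold change -1.37, adjusted p = 0.0435 in limma). Plin1 and Plin5 are both partners of Abhd5, whose own KO values lay below WT without passing the test.

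Of 15 tested genes of the beta-adrenergic arm, 2 passed the test and 13 did not, with a median of -0.39. At an unadjusted p under 0.05 in limma there were 6, where 19.2% of all genes tested lay. Adrb1, the beta-1 receptor, fell from 15.5, 6.04 and 9.99 FPKM in WT to 2.26, 1.76 and 1.13 in KO (log2 fold change -2.02, SE 0.30, adjusted p = 0.0199 in limma). Every KO library lay below every WT library, and KO replicate 3 was the lowest. Adrb3, the main receptor of adult brown fat, is named here after its values were seen. It was low throughout, at 1.21, 2.71 and 2.48 FPKM in WT and 1.61, 1.64 and 0.49 in KO (adjusted p = 0.369 in limma).

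Of 18 tested antilipolytic genes, 1 rose and 17 did not pass, with a median of 0.02. Hcar2, a Gi-coupled receptor for ketone bodies and niacin that restrains lipolysis, rose from 1.27 ± 0.467 to 5.06 ± 1.55 FPKM (SD, n = 3 each; log2 fold change 1.41, adjusted p = 0.0267 in limma). None of 6 genes of the natriuretic and cGMP arm passed in limma, and 0 had an unadjusted p under 0.05. The smallest p-values there belonged to Gucy1a3 (0.31, adjusted p = 0.462) and Gucy1b3 (-0.20, adjusted p = 0.502), which encode the subunits of soluble guanylate cyclase.

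Downstream, 1 of 11 tested genes of fatty acid and glycerol export and use fell, and 10 did not pass, with a median of -0.41. Of the 11, 4 had an unadjusted p under 0.05 in limma. Acsl1, which couples fatty acids to coenzyme A, fell from 1144 ± 79.5 to 709 ± 42.7 FPKM (SD, n = 3 each; log2 fold change -0.69, adjusted p = 0.0417 in limma). Of 14 genes of re-esterification, 13 did not pass, the median was -0.13, and 6 had an unadjusted p under 0.05 in limma. Agpat2, an acyltransferase of triglyceride synthesis, fell from 461 ± 203 to 100 ± 46.1 FPKM (SD, n = 3 each, log2 fold change -2.18, adjusted p = 0.0417 in limma).

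Few relatives of the lipases passed the test. Of 12 other neutral lipases 1 fell, and the median was 0.05. This was Dagla, a diglyceride lipase that makes the endocannabinoid 2-AG, at 8.20 ± 1.92 FPKM in WT and 2.48 ± 0.571 in KO (SD, n = 3 each; log2 fold change -1.40, adjusted p = 0.0164 in limma). MGLL degrades 2-AG, so Dagla and Mgll stand at its synthesis and breakdown. Of 16 ABHD relatives, Abhd17c, a depalmitoylase, fell (-0.67, adjusted p = 0.0480), and the median was -0.04. None of 3 PNPLA relatives passed in limma, and 1 had an unadjusted p under 0.05. Pnpla7, a lysophospholipase, was at 2.67, 2.93 and 3.40 FPKM in WT and 7.13, 3.50 and 17.5 in KO (1.14, adjusted p = 0.192), and Pnpla8 differed by 0.28 (adjusted p = 0.476).

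Of 19 transcription regulators of lipolysis genes, 1 rose, 18 did not pass, and the median was -0.11. At an unadjusted p under 0.05 in limma there were 9 of the 19, and 10 had a negative and 9 a positive log2 fold change. Irf4, a fasting-induced factor of adipose lipolysis, rose (log2 fold change 4.25, SE 0.87, adjusted p = 0.0447 in limma), with the values by library given above. Of 18 PPAR targets Acot1, an acyl-CoA thioesterase, fell from 35.6 ± 6.07 to 17.4 ± 4.38 FPKM (SD, n = 3 each; -1.0, adjusted p = 0.0435), and the median was -0.02. Averaged over the 18, log2(FPKM + 1) minus each gene's own mean was -0.11, 0.21 and 0.22 in WT replicates 1 to 3. It was -0.30, -0.46 and 0.44 in KO replicates 1 to 3. KO replicates 1 and 2 thus lay below every WT library, and KO replicate 3 above every one. G0s2 and Hilpda are themselves PPAR targets in many tissues. Any link of this split to their values was not tested. Of 23 HIF targets 1 fell and 1 rose, 12 had a negative and 11 a positive log2 fold change, and the median was close to 0. That median does not mean little change, since 11 of the 23 had an unadjusted p under 0.05 in limma (19.2% of all genes tested did). The groups did not overlap for 6 lower and 3 higher in KO (11.4% and 13.6% of all genes tested). Pfkfb3, a regulator of glycolysis, fell from 49.9 ± 12.2 to 15.2 ± 3.08 FPKM (SD, n = 3 each; -1.64, adjusted p = 0.0150), and the histone demethylase Kdm3a rose from 16.7 ± 2.17 to 33.4 ± 7.95 FPKM (SD, n = 3 each; 0.94, adjusted p = 0.0423). The KO values of Hilpda, itself a HIF target, lay above WT without passing the test.

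**Figure D5:**
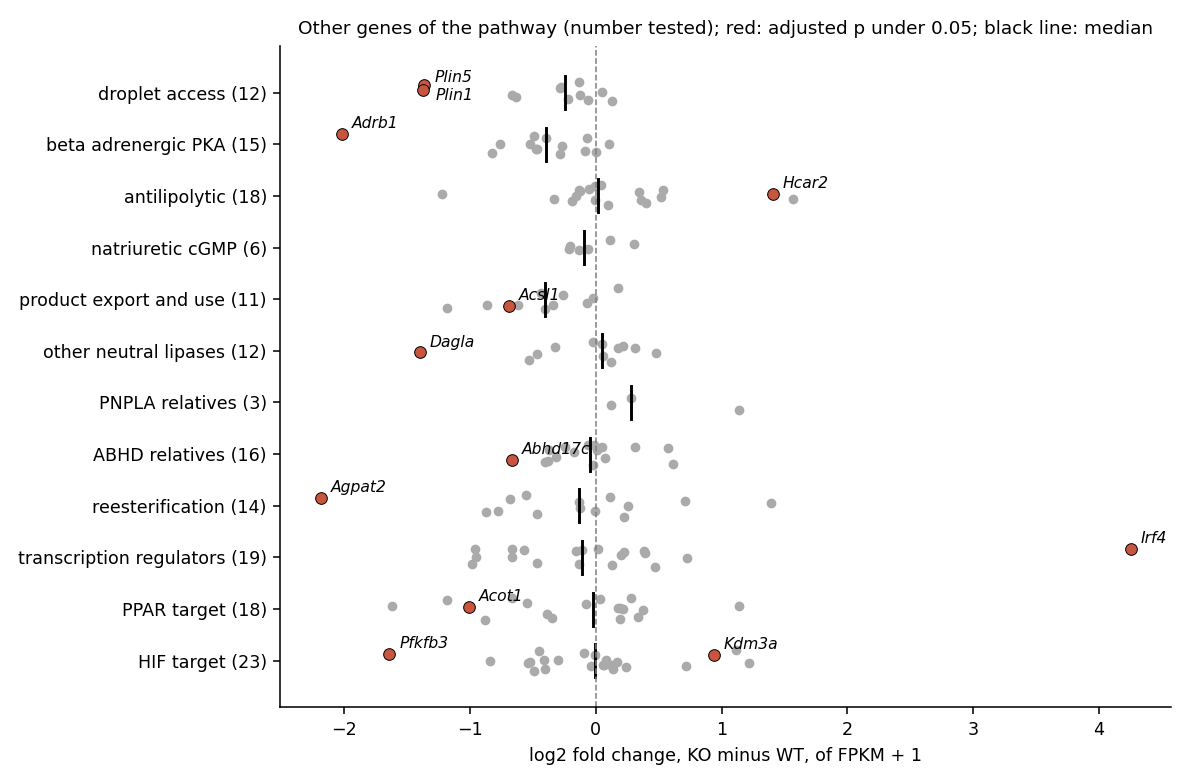
Log2 fold change, KO minus WT, of FPKM + 1 for the tested genes of 12 lists around the lipolysis cascade, with the number tested in brackets (red: adjusted p under 0.05 in limma; grey: other genes; black lines: medians over all genes tested; 1 tested gene is not drawn). The red points lie on both sides of 0, from Agpat2 at -2.18 to Irf4 at 4.25, and the medians lie between -0.41 and 0.28.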

How the data were processed

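Total RNA of whole interscapular brown fat was sequenced in 6 libraries, 3 WT and 3 KO, and group and replicate number were taken from each title. The values are FPKM, per the file headers, rounded by the authors to 2 decimals. HISAT2 2.0.4, Bowtie2 2.2.5, DESeq2 and mm10 are named per the submitters' processing notes, with no role for each. Gene models, strand handling and filters are not given in the sources used here. No value column was left out (0 unused).

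Because these values are no counts, log2(FPKM + 1) was compared with limma 3.58.1 in R 4.3.3 (eBayes with an intensity trend, no covariates), over genes averaging at least 0.5 FPKM, with Benjamini-Hochberg adjustment at 0.05. Log2 fold changes are on this scale, which understates low genes. The fit was tested on simulated data in which 200 of 13331 genes were changed. It recovered 0% of them at a log2 change of 0.5, 56% at 1 and 85.5% at 1.5. False calls numbered 0, 7 and 15. These shares hold for that number of changed genes and need not hold for the data. Ratios and marker-relative levels were compared on log2(FPKM) with exact permutation tests (Python 3.11.15, scipy 1.17.1). Depth was estimated from the steps between low values with transcript lengths from the annotation. At the fitted depth 78.0% to 82.8% of the low values lay within 0.2 of a whole read, against 39.6% to 47.4% after shuffling, so read numbers are estimates and cover counting only. The alternatives were 2 pseudocounts, 2 filters, 3 scalings, 2 variance settings, a replicate block and leaving out each library.

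Members and lists were chosen with earlier results of these data known. The genes named are the 8 members, Fstl1, Ucp1, Xist and Ddx3y, list genes past the threshold or else the 2 with the smallest p, and the 2 nearest profiles of each member. Others were named after their values were seen. Some genes that the rule or a count takes in are not reported here.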

Additional observations from a re-analysis of the deposited data

How the results depend on the processing

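The 8 lipolysis genes kept their direction in every setting tried: 16 for each gene and 15 for Pnpla3, which drops out when a mean of at least 5 FPKM is required. The number past the threshold in limma was 0 throughout, except that leaving out single libraries gave 0 to 1 (1 without WT replicate 1: Mgll). The number of all genes past it, 295, was 35 with no filter on low values, 191 after rescaling to a common sum, and 31 to 370 with single libraries left out. With the replicate number as a block it was 167, with 0 lipolysis genes past it. Same-numbered WT and KO libraries correlated by 0.068, 0.043 and 0.043, in each case the highest for that library, but all under 0.1, so no pairing was assumed. The block ended the call of 7 of the 13 pathway genes named (Abhd17c, Acot1, Acsl1, Agpat2, Kdm3a, Plin1 and Plin5), and no filter on low values ended all 13 and that of Fstl1 (adjusted p = 0.0606 in limma). Of the ratios and marker-relative levels only Lipe against adipocyte markers changed direction: it was 0.0178 when KO replicate 2 was left out, and -0.38 at the other end of that range. With 3 libraries a group, 1 library can decide a call, and exact tests cannot go below p = 0.1. Estimated reads under 150 limit Pnpla3, Hilpda, Abhd6 in KO replicate 2 and G0s2 in KO replicate 3.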
